A study of Rattus norvegicus with 8 samples.

Results

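The genes of the cytosolic ribosomal proteins were followed in the striatum of rats that had self-administered methamphetamine (METH) or saline. They were taken as every row of the count file whose symbol starts with Rpl or Rps followed by a digit, together with Rplp0, Rplp1, Rplp2 and Rpsa, and without the S6 kinase and Rps19bp genes. This gave 85 of 17337 rows, 51 for the large (60S) subunit and 34 for the small (40S) subunit. Polyadenylated RNA of 8 male wild-type Sprague-Dawley rats was sequenced, 4 from the METH group and 4 from the saline group. All rats were food-trained and carried a jugular catheter, and they pressed a lever for infusions in sessions of 2 h per day over 16 days, at 0.05 mg/kg per infusion in the METH group. The rats of both groups had been chosen for stable lever pressing, the anaesthetic before brain sampling was ketamine and xylazine, and the time between the last session and sampling is not given in the sources used here.

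A cytosolic ribosome joins a large subunit, which forms peptide bonds, to a small subunit, which reads the mRNA, and each of its proteins is usually present once, so that the subunits need their proteins in matched amounts. Many mRNAs of these proteins begin with a C followed by a run of pyrimidines, the 5′ terminal oligopyrimidine (TOP) tract, through which the TOR kinase pathway and the binding protein Larp1 control their translation and stability. In neurons, ribosomes work in the cell body and also in dendrites and axons.

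The start of each gene was read from RefSeq (assembly GRCr8) to see what the members share apart from their names. The table gave 1 start for 65 of the 85 members, none for 19 and more than 1 for Rps27a. A TOP tract, written as C followed by at least 4 bases that are C or T, on the sense strand and exactly at the start, was found in 24 of the 65 (36.9%), compared with 630 of 24206 genes with 1 start (2.60%). When the start was allowed to shift by up to 5 bases, the share was 61.5% of the members and 16.8% of all genes. The tract lay at the start of 17 of 40 large subunit genes (42.5%) and 7 of 25 small subunit genes (28.0%), and its length ran from 5 to 12 bases with a median of 7.5. Windows of 25 bases, 5 before the start and 20 from it, are shown for the longest tracts, for shorter ones in both subunits, and for members described further on. Capitals mark the tract, and a window in lower case has none at its start.
Rpl31, chr9:49143106-49143130, plus strand: tcgcgCCTTTCCTTTCCaacttggg
Rpl10, chrX:157205845-157205869, plus strand: agcgtCTCTTTTCCTCTggcgcggt
Rpl37a, chr9:81748086-81748110, plus strand: tgcgtCTCTTCCTCTTCgggcttgg
Rps18, chr20:4933740-4933764, plus strand: ccgctCTCTCTTCCacaggaggcct
Rplp1, chr8:71290853-71290877, minus strand: gtgatCCTTTCCTCagctgccgcca
Rps7, chr6:50999426-50999450, minus strand: tgtgtCTCTTTCTaagccggcactc
Rpl9, chr14:43247585-43247609, plus strand: gttctCTCTTTgccccatctactgc
Rpl38, chr10:100200430-100200454, plus strand: tttccgttgttcggtgctcgctcct
Rplp2, chr1:205975916-205975940, plus strand: ccggacgccgccgaggtcgcacgcg
Rps6, chr5:106420521-106420545, minus strand: aggcggtcggctgtgtcaagatgaa
Rpl31, Rpl10 and Rpl37a share the longest tract length, 12 bases. A window without a tract says only that these letters are not at that annotated start.

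The 8 libraries held 18135939 to 21211920 counts. Levels are given as CPM, the read count relative to a library size scaled by TMM (trimmed mean of log ratios between libraries), which moved the sizes by factors of 0.956 (METH rat 3) to 1.018 (saline rat 3). They showed the markers of the labelled tissue: all 6 genes that mark striatal projection neurons were counted in every rat, and their summed level was 11633 to 12135 CPM in the saline group and 12344 to 15944 CPM in the METH group. Summed markers of neurons lay at 1894 to 2257 CPM in saline rats and 1550 to 1897 CPM in METH rats, of astrocytes at 1905 to 2133 and 1784 to 2329 CPM, of microglia at 300.7 to 354.2 and 261.2 to 319.5 CPM, and of oligodendrocytes at 12461 to 18159 and 11834 to 17635 CPM. Endothelial markers summed to 393.0 to 569.8 CPM in saline rats and 401.2 to 429.3 CPM in METH rats, and the 3 blood markers in the file to 118.0 to 226.4 and 112.3 to 209.1 CPM. Choroid plexus markers were near background, at 4.06 to 5.6 and 6.09 to 8.91 CPM, with Ttr, Kl and Kcnj13 at 0 in at least 1 rat. The ranges of the groups overlapped for each of these lists except the projection neurons and the choroid plexus, and the part of these cell types in the results was not tested. Taken singly, each of the 6 projection neuron markers had overlapping groups. Ppp1r1b gave the largest part of their sum (log2 fold change 0.25, FDR 0.328). With it, 4 of these markers were above 0, while Drd1 and Adora2a were at -0.03 and -0.01. Single markers parted from their sums: of the 4 neuron markers Snap25 was lower in the METH group without overlap (log2 fold change -0.52, FDR 0.0632) while Rbfox3 and Tubb3 were at 0.09 and 0.08, and of the 6 microglial markers 5 were below 0 and Cx3cr1 was called lower (-0.73, FDR 0.0408). In bulk tissue, a change in the number of cells of a type and a change in the RNA of each cell cannot be told apart.

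Most of the members were plainly expressed. Of the 85, 73 had a mean above 20 CPM, 45 of the large and 28 of the small subunit, with 468 to 21455 reads in any rat. The other 12 had at most 214 reads in any rat. This low group held Rpl3l, a striated muscle paralog of Rpl3, and Rps27l, a p53-responsive paralog of Rps27. It also held core proteins that every ribosome carries, namely Rps6, the target of the S6 kinases, Rps9, Rps19, Rpl7a, Rpl37a and the stalk protein Rplp2. Rps6, for example, had 68, 46, 32 and 54 reads in saline rats 1 to 4 and 48, 34, 50 and 56 reads in METH rats 1 to 4.

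Ribosomal protein genes have many near-identical copies, and the treatment of reads that map to several places is not given in the sources used here. The GRCr8 gene table names pseudogene or like copies, matched by symbol alone, for 79 of the 83 members checked. There were 1103 in all with a median of 14 per member, and 1100 of them have no row of that symbol in the count file. Those with a row are the paralog Rpl22l1, counted under Rpl22, and the pseudogenes Rpl37a-ps1 and Rps4x-ps1. The counts were made on rn6, so a copy may stand there under another name, and the likeness of the copies was not measured. Rps2 had the most named copies, with 36, while Rps6 had 11, Rps9 17, Rps19 20, Rpl7a 21, Rpl37a 17 and Rplp2 5. The levels of members with copies are therefore uncertain, and the part of the copies in the low counts was not tested. The filter on low counts kept 81 members, and it removed Rpl37a, with 2 to 11 reads per rat, the testis paralog Rpl39l, with 0 to 12 reads, and the pseudogene rows Rpl37a-ps1 and Rps4x-ps1.

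As a group, the members took up a similar share of all counts in both groups of rats, and the rat with the lowest share was a saline rat. The 85 genes held 2.80%, 2.84%, 2.12% and 2.50% of the counts in saline rats 1 to 4, and 2.61%, 2.38%, 2.72% and 2.61% in METH rats 1 to 4. The lowest share was in saline rat 3 and the highest in saline rat 2, and the 4 METH rats lay between them. The mean share was 2.56% ± 0.335 (SD, n = 4) in the saline group and 2.58% ± 0.144 (SD, n = 4) in the METH group, a difference of 0.0172 percentage points, smaller than the pooled SD of 0.258. Without saline rat 3 the saline mean was 2.71%, which is above the METH mean. The 95% Wilson interval of any rat's share was at most 0.0152 percentage points wide, so counting error was small beside the spread between rats.

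**Figure D1:**
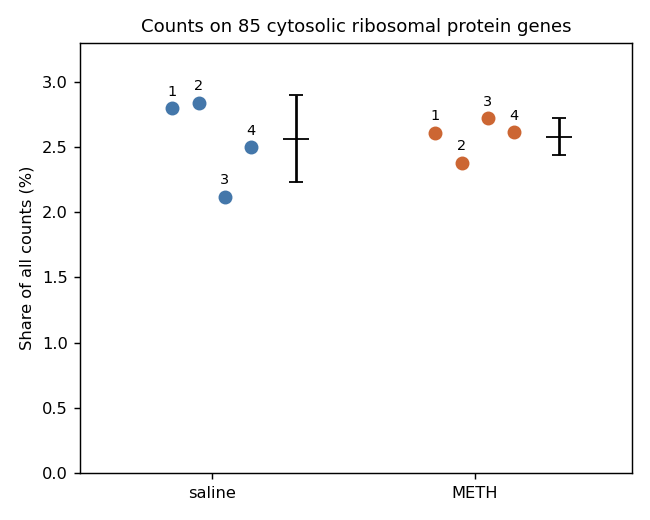
Share of all counts, in percent, on the 85 cytosolic ribosomal protein genes in each rat, with the rat numbers beside the points and the mean ± SD (n = 4) at the right of each group. Saline rat 3 lies lowest at 2.12%, and the other 7 rats lie between 2.38% and 2.84%.

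Both subunits gave the same picture, with the group means closer than the SDs. Small subunit genes held 1.06% ± 0.141 of the counts in the saline group and 1.08% ± 0.0654 in the METH group, and large subunit genes held 1.5% ± 0.194 and 1.5% ± 0.0797 (SD, n = 4).

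The members rose and fell together from rat to rat. For each of the 73 members above 20 CPM, the log2 CPM in each rat was set against its mean over the 8 rats, and the median of these differences was taken in each rat. It was 0.12, 0.13, -0.31 and -0.05 in saline rats 1 to 4 and 0.04, -0.10, 0.16 and 0.01 in METH rats 1 to 4. Saline rat 3 was below the mean in 73 of 73 members and the lowest of the 8 rats in 71. The highest rat was METH rat 3 for 34 members, saline rat 2 for 20 and saline rat 1 for 19. This order of the highest rats rests on the TMM scaling: on total counts, with the median at 0.15 in saline rat 2, 0.12 in saline rat 1 and 0.10 in METH rat 3, the highest rat was saline rat 2 for 38 members, saline rat 1 for 19 and METH rat 3 for 15. Saline rat 3 was lowest on total counts too, in 69 members with a median of -0.28. From the highest to the lowest rat the median moved 1.38-fold, and 1.20-fold when saline rat 3 was left out, both on the TMM scale.

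**Figure D2:**
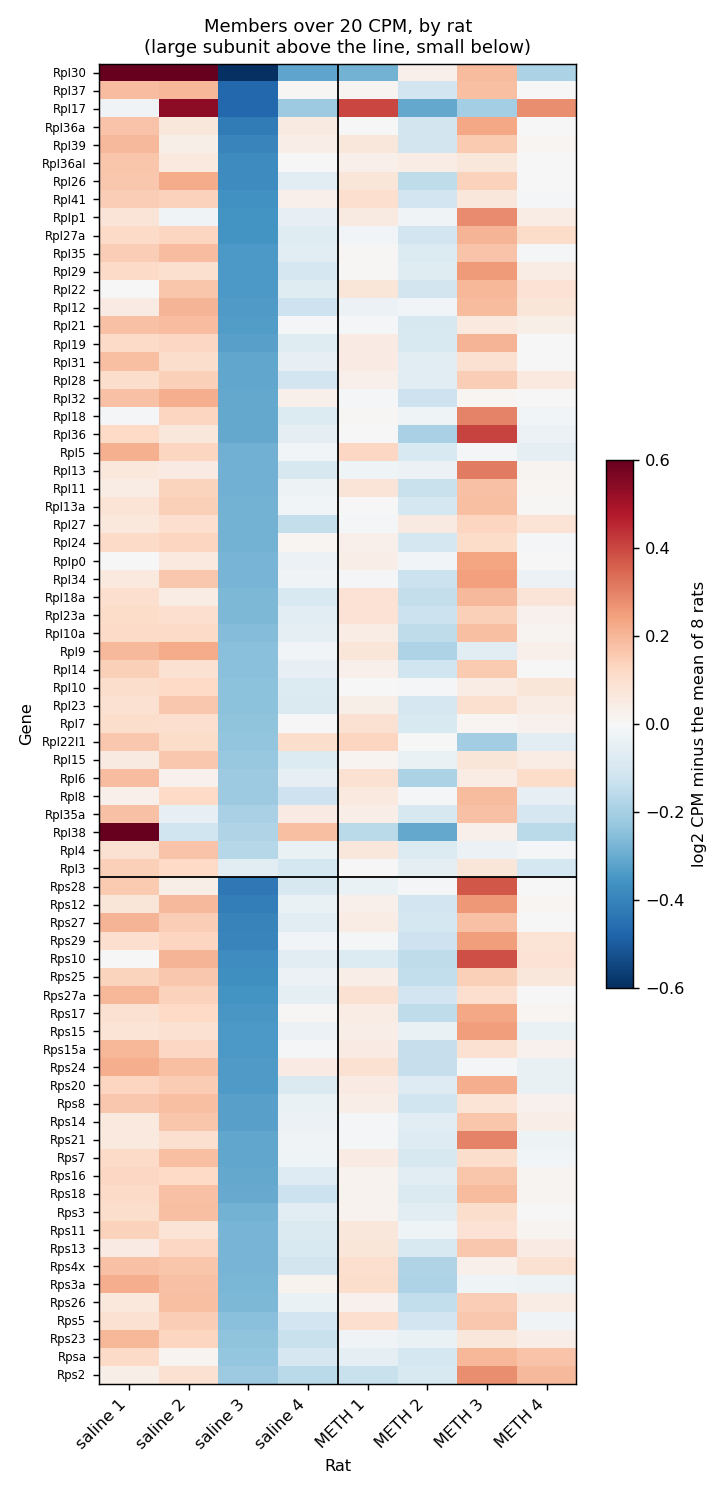
Log2 CPM of each of the 73 members above 20 CPM minus its mean over the 8 rats, with large subunit genes above the horizontal line, small subunit genes under it, and colours that saturate at the ends of the scale. The column of saline rat 3 is blue in all 73 rows, with a median of -0.31, while Rpl30, Rpl17 and Rpl38 break the pattern of the other rows.

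The spread between rats of 1 group was smaller once this shared movement was taken out. The median within-group SD of log2 CPM was 0.173 over the 73 members, compared with 0.133 over all 7002 genes above 20 CPM. After the median of the members was subtracted in each rat, it was 0.0576, lower than before in 72 of 73 members and under 0.1 in 63. The same subtraction moved the median of all genes above 20 CPM to 0.202, and lowered the SD in 18.1% of them. The subtracted median was computed from the same members, so a fall is built in to some degree and is given as a description.

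No member was called different between the METH and saline groups. The test was edgeR's quasi-likelihood test on all 12014 genes that passed the filter, with Benjamini-Hochberg adjusted p-values (FDR), and a call needed an FDR under 0.05 and a mean log2 CPM above 1. It called 0 of the 81 members, where it called 0.516% of all genes, and DESeq2 and limma-voom also called 0. At an unadjusted p under 0.05, 1 member was higher in the METH group (Rplp2), against 6.26% of all genes, and 0 were lower, against 4.88%. The lowest FDR was 0.394. The levels of the 4 METH rats and the 4 saline rats overlapped for every tested member, while they did not overlap for 6.39% of all genes.

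The fold changes were small and among the 73 members above 20 CPM every 95% interval included 0. In these genes the log2 fold change (METH against saline) ran from -0.34 to 0.17 with a median of 0.05, and 71 lay within 0.2 of 0. The standard errors (SE) ran from 0.0772 to 0.234 with a median of 0.102. For 71 of the 73, the 95% interval lay inside a 1.5-fold change in either direction. The intervals of Rpl30 and Rpl38 reached further, down to a log2 fold change of -0.73 and -0.69.

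**Figure D3:**
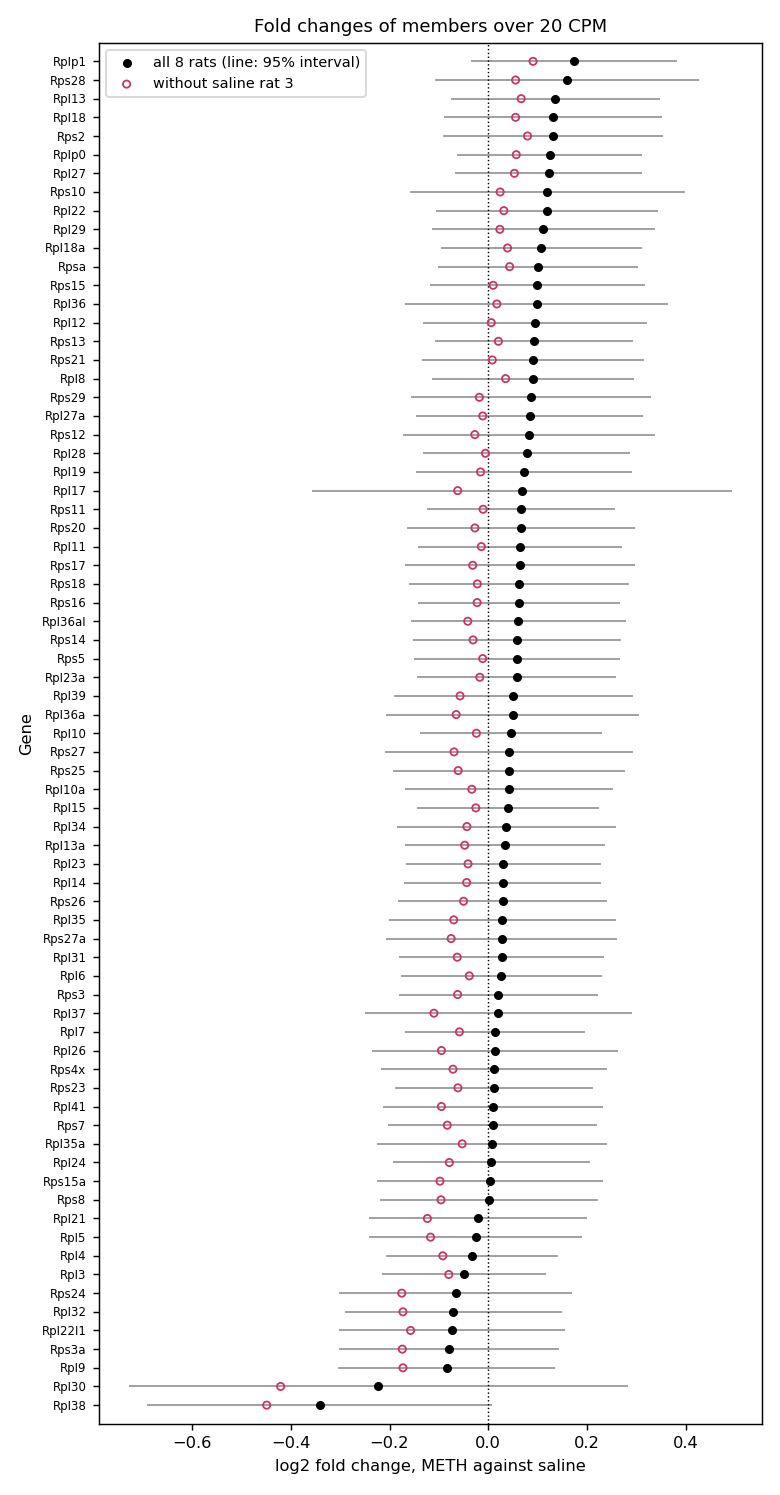
Log2 fold change of the 73 members above 20 CPM in the METH group against the saline group, with 95% intervals as lines, and the same value without saline rat 3 as open circles. No filled point lies beyond -0.34 or 0.17, and 44 of the 73 change sign when saline rat 3 is left out.

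The direction of the members depended on single rats, most of all on saline rat 3. With all 8 rats, 69 of 81 members (85.2%) had a log2 fold change above 0, compared with 48.6% of all genes, and their median was 0.06 compared with -0.01 for all genes. The large subunit had 39 of 48 above 0 with a median of 0.04, and the small subunit had 30 of 33 above 0 with a median of 0.06. When the libraries were scaled to their total counts, 48 of the 81 members lay above 0 and the median was 0.02, with the median of all genes at -0.04. Without saline rat 3, 23 of 81 members (28.4%) lay above 0, compared with 49.1% of all genes, and the median was -0.03. Without METH rat 3, 47 of 81 lay above 0 and the median was 0.01. Of the 73 members above 20 CPM, 18 were above 0 and 55 below when saline rat 3 was left out. In the comparison without saline rat 3, Rpl30, Rpl32 and Rpl38 were lower at an unadjusted p under 0.05 (3 members, with 3.91% of all genes lower), none was higher, and 0 members were called (lowest FDR 0.376, edgeR). Saline rat 3 was the lowest rat in 71 of the 73 members above 20 CPM, so a fall of their fold changes without it is built in to some degree. Members share their rats, so these counts are a description of the rats and not of independent genes.

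The stalk proteins Rplp0, Rplp1 and Rplp2, which draw the elongation factors to the large subunit, all had values above 0. Rplp1 was at 834, 780, 617 and 765 CPM in saline rats 1 to 4 and at 821, 779, 964 and 816 CPM in METH rats 1 to 4. Saline rat 3 was lowest and METH rat 3 highest, with the other rats mixed. Its log2 fold change was 0.17 (SE 0.0967, FDR 0.509), the highest of the 73 members above 20 CPM. Rplp0, the base of the stalk and a common reference gene, had a log2 fold change of 0.12 (SE 0.0870, FDR 0.60). Rplp2 had only 28, 20, 14 and 24 reads in saline rats 1 to 4 and 48, 28, 48 and 34 reads in METH rats 1 to 4. METH rat 2 equalled saline rat 1 in reads, and the other 3 METH rats were above all saline rats. The log2 fold change of Rplp2 was 0.91 (SE 0.370, FDR 0.394), on counts this low and with 5 named copies in the genome.

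Rpl38 had the lowest log2 fold change of the members. This large subunit protein is known from mice in which its loss disturbs the translation of Hox mRNAs. It was at 249.7, 140, 134 and 172 CPM across the saline group, rats 1 to 4, and at 135, 122, 155 and 136 CPM across the METH group. Saline rat 1 was far above the other 7 rats, which overlapped. The log2 fold change was -0.34 (SE 0.162, FDR 0.457), and -0.11 without saline rat 1.

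Rpl30 followed a pattern of its own. This small protein of the large subunit sits close to the face that meets the 40S subunit. It was at 241, 244, 100.2 and 127 CPM across the saline group and at 129.9, 161, 180.2 and 138 CPM across the METH group. Saline rats 1 and 2 were higher than every METH rat and saline rats 3 and 4 were lower than every METH rat, so the saline group enclosed the METH group. The log2 fold change was -0.22 (SE 0.234, FDR 0.745), and -0.42 (SE 0.185, FDR 0.516) without saline rat 3.

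Rpl17, a protein near the exit of the peptide tunnel, was chosen after its values were seen. Its levels were 257, 379, 188 and 224 CPM across the saline group and 345, 211, 227 and 317 CPM across the METH group. Saline rat 2, METH rat 1 and METH rat 4 were the 3 highest, and the groups overlapped fully (log2 fold change 0.07, SE 0.197, FDR 0.928). The same 3 rats were highest for Rps4y2, a gene named as a copy of the small subunit protein Rps4, which had 59, 154, 28 and 43 reads across the saline group and 96, 80, 50 and 111 across the METH group. Its log2 fold change was 0.27 (SE 0.437, FDR 0.845). From the highest to the lowest rat, Rpl30 moved 2.43-fold, Rpl38 2.04-fold and Rpl17 2.01-fold. Among the 73 members above 20 CPM, these 3 genes also had the largest within-group SD once the median of the members was subtracted, at 0.357 for Rpl30, 0.321 for Rpl17 and 0.249 for Rpl38. Members with few reads spread more, with 0.710 for Rps4y2 and 0.477 for Rps9.

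**Figure D4:**
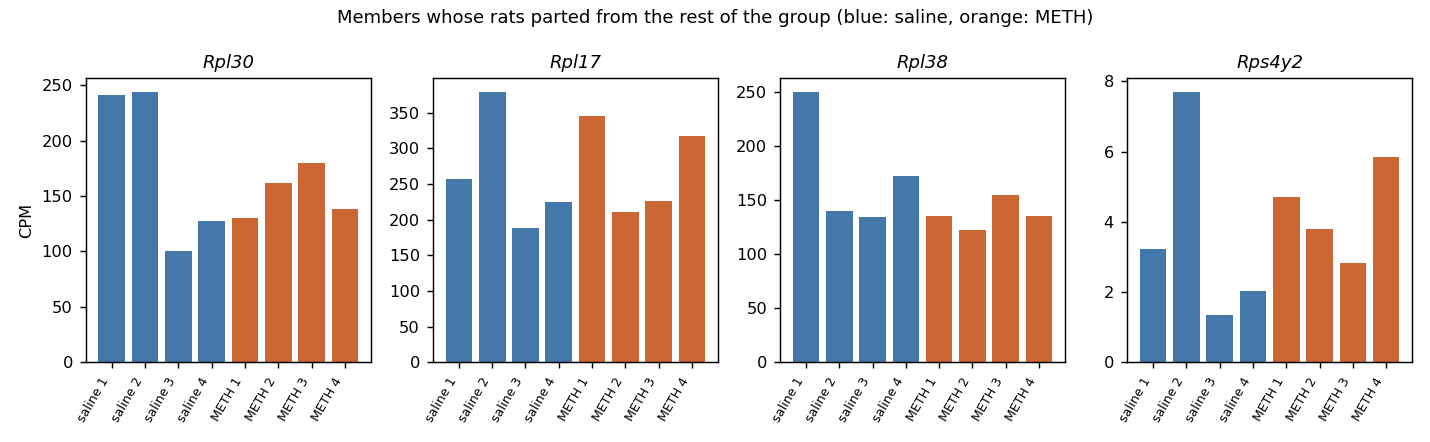
CPM of Rpl30, Rpl17, Rpl38 and Rps4y2 in each rat, 1 bar per rat from 0, with saline rats in blue and METH rats in orange. Rpl38 is high in saline rat 1 (249.7 CPM), and Rpl17 and Rps4y2 share saline rat 2, METH rat 1 and METH rat 4 as their 3 highest rats.

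The other members at the ends of the range had 95% intervals that included 0. Rps9, which lies in the mRNA channel of the small subunit, had a log2 fold change of 0.45 (SE 0.435, FDR 0.717) on 12 to 48 reads per rat, and Rps27l had 0.21 (SE 0.159, FDR 0.633). At the lower end stood Rpl9 and Rps3a at -0.08 each (FDR 0.786 and 0.800) and Rpl22l1 at -0.07 (SE 0.106, FDR 0.819).

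Members known for roles outside the ribosome lay within the range of the rest. Rpl5 and Rpl11, which bind the p53 regulator Mdm2 when ribosome assembly is disturbed, were at log2 fold changes of -0.03 and 0.06. Rps19 and Rps14, whose loss causes anaemias in people, were at 0.07 and 0.06, and Rps6 was at -0.06. Rpsa, also known as the laminin receptor, was at 0.10, Rps3, which also takes part in DNA repair, at 0.02, and Rpl10, among the last proteins to join the 60S subunit, at 0.05. Rpl13a, often used as a reference gene, was at 0.03, and Rpl41, the smallest of the ribosomal proteins, at 0.01. The FDR of each of these genes was above 0.7.

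Paralogs of the same protein were compared by their fold changes. Of the 6 pairs in the file, Rpl36a and Rpl36al were at log2 fold changes of 0.05 and 0.06, Rpl3 and Rpl3l at -0.05 and 0.06, and Rpl22 and Rpl22l1 at 0.12 and -0.07. Rps27 and Rps27l were at 0.04 and 0.21, and Rps4x and Rps4y2 at 0.01 and 0.27. The gene Rpl39 was at 0.05, and its partner Rpl39l was not tested. No tested paralog was called, and the differences between partners were not tested.

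Members with and without a TOP tract exactly at the annotated start had similar medians, and the difference was not tested. This split depends on the annotation. Of the 65 members, 24 had the tract exactly at the start and 40 had it when the start was allowed to shift. Members counted as without a tract at the start can therefore carry it a few bases away, so the split does not sort members by TOP tract as such. The 23 members above 20 CPM with a tract at the start had a median log2 fold change of 0.04, with 21 above 0, and the 33 without one had a median of 0.03, with 26 above 0. Rplp1, the highest of the 73, and Rpl9, among the lowest, both have the tract shown in their windows.

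When the libraries were scaled so that the median member was level in all rats, a scaling chosen after the rat-wise movement was seen, 5 of the 81 members had groups that did not overlap, compared with 3.17% of all genes. These were Rplp1 and Rplp2, higher in the METH group at log2 fold changes of 0.12 and 0.86, and Rpl9, Rpl32 and Rpl24, lower at -0.13, -0.11 and -0.04. No member was called (0.191% of all genes were, lowest FDR of a member 0.901, edgeR), and 2 had an unadjusted p under 0.05. The median log2 fold change of all genes was then -0.07, and changes on this scale are relative to the members. The scale was computed from these same members, so it narrowed their spread and widened that of most other genes above 20 CPM. On the TMM scale, 6.39% of all genes had groups that did not overlap. The comparison of 5 of 81 with 3.17% is therefore built in to some degree and is given as a description.

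Genes that work with the ribosome were compared in the same fit, and none of their lists had a called gene. Of the 22 tested translation factors and other mRNAs known for TOP tracts, 16 lay above 0 with a median of 0.05, and 1 was higher at an unadjusted p under 0.05. Of the 17 genes of this list with 1 start in the table, 0 had the tract exactly at that start and 35.3% had it with the start shifted. The gene at that p was Ybx1, an mRNA binding protein, at 179, 173, 162 and 176 CPM across the saline group and 201, 190.8, 203 and 179.6 CPM across the METH group (log2 fold change 0.16, SE 0.0717, FDR 0.426). Each METH rat was above each saline rat, the lowest of them by a narrow margin. Mitochondrial ribosomal proteins, which build the separate ribosome of the mitochondrion, had 51 of 66 above 0 (77.3%) with a median of 0.06, 3 higher and 0 lower at an unadjusted p under 0.05. The lowest p among them belonged to Mrps16 (log2 fold change 0.25, SE 0.0903, FDR 0.334).

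Of 34 ribosome assembly factors, 22 lay above 0 with a median of 0.06, and 3 were higher and 1 lower at an unadjusted p under 0.05. Dkc1, the pseudouridine synthase that modifies ribosomal RNA, was at 90.3, 171, 70.9 and 187 CPM across the saline group and 208, 211, 268 and 217 CPM across the METH group. Every METH rat was above every saline rat, but the saline rats themselves spread widely (log2 fold change 0.80, SE 0.241, FDR 0.232). Genes of RNA polymerase I, which transcribes ribosomal RNA, had 5 of 13 above 0 with a median of -0.01, with 1 higher and 0 lower at that p, and Taf1c had the lowest p (log2 fold change 0.41, FDR 0.391).

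The list of TOR and S6 kinase genes, some of which lie upstream of TOP mRNA translation, had 8 of 21 above 0. Its median was -0.04, with 3 higher and 3 lower at an unadjusted p under 0.05. The list also took in the Rps6ka genes, Rps6kc1 and Myc, whose place in that route was not examined. Rheb, the small GTPase that activates TOR complex 1, was at 150.1, 152, 156 and 159 CPM across the saline group and 191, 192, 180.5 and 208 CPM across the METH group. Its groups did not overlap, yet it missed the call at an FDR of 0.0739 (log2 fold change 0.32, SE 0.0700, edgeR). Rps6kb2, an S6 kinase, had a log2 fold change of 0.44 (SE 0.165, FDR 0.356), with groups that overlapped. The groups did not overlap for 4 of the 21 genes, compared with 6.39% of all genes. Besides Rheb these were the 3 lower genes, Rps6ka1, Rps6ka6 and Rps6kc1, at log2 fold changes of -0.29, -0.64 and -0.16. None of these 3 is one of the genes with an Rps6kb symbol.

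The lists differed in how far they moved in the rats where the ribosomal proteins moved most. In saline rat 3, with the ribosomal proteins at -0.31, the median log2 difference from the mean of the 8 rats was -0.17 for the translation factors and other TOP mRNAs, -0.14 for the mitochondrial ribosomal proteins and -0.06 for the assembly factors, but 0.07 for RNA polymerase I and 0.05 for the TOR and S6 kinase genes. In METH rat 3, with the ribosomal proteins at 0.16, these medians were 0.10, 0.12, 0.11, 0.04 and -0.03. Cell type markers moved in these rats as well, without a common direction. In saline rat 3 and METH rat 3, the medians were 0.22 and -0.22 for the 4 neuron markers, -0.07 and 0.19 for the striatal projection neurons, -0.11 and 0.27 for oligodendrocytes, -0.04 and -0.17 for astrocytes, -0.03 and -0.10 for microglia, and -0.19 and -0.13 for endothelium. The neuron markers were themselves divided, with Snap25 and Syt1 lowest of the 8 rats in METH rat 3 and Tubb3 highest there. The part of these cell types in the movement of the ribosomal proteins was not tested. Without saline rat 3, 12 of 22 translation factors and other TOP mRNAs lay above 0 with a median of 0.00, 39 of 66 mitochondrial ribosomal proteins with a median of 0.03, and 22 of 34 assembly factors with a median of 0.05.

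**Figure D5:**
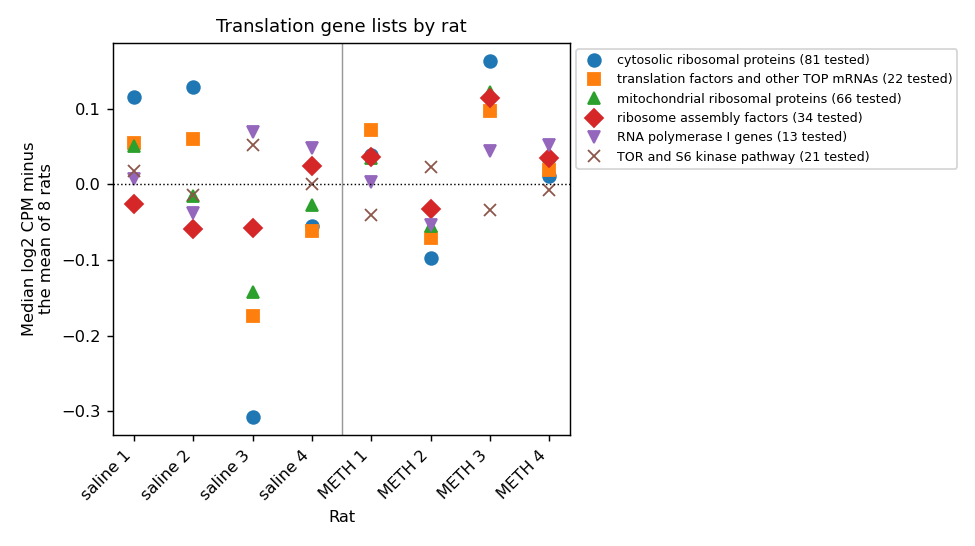
Median log2 CPM minus the mean of the 8 rats for the cytosolic ribosomal protein genes and 5 lists of genes that work with the ribosome, in each rat. The cytosolic ribosomal proteins span the widest range, from -0.31 in saline rat 3 to 0.16 in METH rat 3.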

How the data were processed

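Per the labels and the methods, striatal mRNA was prepared with TRIzol and a TruSeq v2 poly(A) kit from 8 rats. The authors used Cutadapt 1.18 for trimming, STAR 2.7.0e for alignment (rn6) and featureCounts (Subread 1.6.4) for counting, and deposited raw counts, 1 column per rat. The annotation and strand setting are not given in the sources used here, so overlapping and antisense genes are uncertain.

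Counts were filtered with filterByExpr (minimum count 10), scaled by TMM and compared in edgeR 4.0.16 (R 4.3.3) by its quasi-likelihood F-test. The SE is the fold change divided by the root of F. Log2 CPM used a prior count of 2. A count of 0 allows up to 3 counts, 0.142 to 0.169 CPM per rat. Such intervals and floors hold counting error alone. Alternatives used DESeq2 1.42.0, limma 3.58.1, other scalings, filters and thresholds, each rat left out, and the rat number as a block.

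Members and lists were chosen with earlier results of these data known. Members named were the 5 highest and 5 lowest by log2 fold change, paralog pairs, landmark genes and those removed by the filter. Of each list of genes that work with the ribosome, the 1 or 2 genes of lowest p were named. Rpl17, Rpl24, Rpl32 and Rps2, the genes Rps6ka1, Rps6ka6 and Rps6kc1, and single cell type markers were named after their values were seen. Levels per coding length and protein comparisons were not used here. Starts are from RefSeq on GRCr8, not rn6.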

Additional observations from a re-analysis of the deposited data

Results flagged for a closer look

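For 30 tested members named here, and for the share of counts and the median of the members, each group of 4 rats was checked. The check looked for a rat far from the others of its group. Of the 64 groups, 2 passed Dixon's critical value for a group of 4 (3.125%). Chance passes about 1 in 20 such groups. In both, saline rat 3 was the lowest rat. The share of counts and the median of the members did not pass in either group. The gap of Rpl22l1 below the next saline rat was 0.853 of the group's range (47.1, 45.4, 35.7 and 45.3 CPM in saline rats 1 to 4). The gap of Rps9 was 0.912 (24, 26, 12 and 26 reads). Both gaps were taken on log2 CPM with a small constant added, so the levels and reads shown do not give them directly. The cause was not tested.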

How the results depend on the processing

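No alternative called any member, and every count of calls stayed at 0, also at an FDR under 0.10, without the log2 CPM threshold and with each rat left out. The lowest FDR of a member lay between 0.237 (likelihood ratio test) and 0.901 (scaled to the member median). The median log2 fold change lay between 0.02 (total counts) and 0.06 (limma-voom) and the number of members above 0 between 48 and 69 with all rats and the planned settings. With each rat left out, the median ran from -0.03 (without saline rat 3) to 0.10 (without saline rat 2), the members above 0 from 23 (without saline rat 3) to 71, and the share difference from -0.132 to 0.110 percentage points. The share difference was 0.0171 over filtered genes and 0.0274 without the 10 most counted other genes.

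Of the named genes, 4 changed sign under total-count scaling, which shifts the median of all genes to -0.04: Rpl13a to -0.0030, Rpl41 to -0.026, Rps3 to -0.015 and Rps4x to -0.023. Scaling to the member median moved Rpl10 to -0.0012, Rpl13a to -0.017, Rpl41 to -0.034, Rps27 to -0.00031, Rps3 to -0.026 and Rps4x to -0.034. With each rat left out, the log2 fold change changed sign at least once for Rpl10 (-0.0241 to 0.0953), Rpl11 (-0.0141 to 0.123), Rpl13a (-0.0478 to 0.0890), Rpl17 (-0.0619 to 0.301), Rpl36a (-0.0650 to 0.117), Rpl36al (-0.0415 to 0.131), Rpl39 (-0.0572 to 0.128), Rpl3l (-0.221 to 0.214), Rpl41 (-0.0949 to 0.0613), Rpl5 (-0.117 to 0.0445), Rps14 (-0.0308 to 0.128), Rps19 (-0.0297 to 0.190), Rps27 (-0.0693 to 0.121), Rps3 (-0.0622 to 0.0876), Rps4x (-0.0715 to 0.0754), Rps4y2 (-0.00946 to 0.967) and Rps6 (-0.233 to 0.188).

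Same-numbered rats are different animals and share only a number. The correlations of their deviations were 0.010, -0.185, -0.201 and 0.036 for numbers 1 to 4, and 1 of 4 correlated best with its own number. With the rat number as a replicate block, 0 members were called, the median log2 fold change was 0.06, 69 members lay above 0, and all genes called went from 62 to 37. With 4 rats per group and a median SE of 0.102 above 20 CPM, changes of the size of the medians given here were not detectable gene by gene.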
